A study of Mus musculus with 12 samples.

Results

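The comparison was between KO3 and KO2, 2 mouse fibroblast lines edited at the same gene, Crls1. Its members were 6 of the 12 RNA-seq libraries of the study, 3 of each line, and every gene that reached 10 normalized counts in 3 or more of those 6 libraries. Of 54392 gene rows, 14124 passed this filter, 29643 were at 0 in all 6 libraries, and 10625 had some signal without passing. The wild-type (WT) libraries and those of a further edited line, KO1, were left out of the tests and are given only as reference levels.

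NIH-3T3 is an immortalised line of mouse embryonic fibroblasts. KO2 and KO3 were made by transfection with a Cas9 vector that also encoded a Crls1 guide RNA, and each was grown from 1 GFP-positive cell sorted into its own well, so that each line is 1 clone and a clone effect cannot be told apart from an effect of editing. According to the submitters, sequencing of amplified genomic DNA showed that Crls1 alleles were lost; the cut site and the resulting alleles were not used here. All groups, WT included, were grown in the same high-glucose medium with glutamine, serum, pyruvate and uridine. The libraries were made from total RNA after removal of ribosomal RNA, with random hexamer priming. Separate cultures for the 3 libraries of each line are not mentioned in the labels, so p-values measure only the spread between these libraries, which may be technical.

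Crls1 encodes cardiolipin synthase, the enzyme of the inner mitochondrial membrane that joins phosphatidylglycerol and CDP-diacylglycerol into cardiolipin, a phospholipid with which respiratory chain complexes, cristae organisers and protein import machinery associate. Disturbed mitochondria are known in cultured cells to engage the integrated stress response, in which phosphorylated eIF2-alpha lowers general translation while the transcription factor ATF4 raises genes of amino acid synthesis, transport and tRNA charging. Mitochondrial nucleic acids can also be sensed in the cytosol and raise interferon-stimulated genes. Clones derived from single cells of an aneuploid line can also differ by inherited chromosome content and by inherited on and off states of single genes.

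The depth was 36301871 to 40194770 reads per library in KO2 and 34621160 to 42211807 in KO3, and transcripts of mitochondrial DNA took 5.24 to 5.36% and 5.75 to 5.96% of them. Over log2 values of the tested genes, libraries of the same line correlated with r from 0.986 to 0.990 and libraries of different lines with r from 0.933 to 0.941 (across genes, which are not replicates). The first principal component, which held 78.9% of the variance, separated the lines. No pair of libraries agreed within sampling noise, and each was counted as 1 sample.

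The lines differed at most of the genes tested. In limma's test on log2(normalized count + 1), with Benjamini-Hochberg adjustment over all 14124 genes and a threshold of 0.05, 4094 genes (29%) were higher and 4105 (29.1%) lower in KO3, so that 58.1% of genes were called. Most of these differences were small: the median absolute log2 difference of a called gene was 0.53. At least 2-fold, 710 genes (5.03%) were higher and 1015 (7.19%) lower; at least 4-fold, 274 and 341; and at least 16-fold, 103 and 67. Without reference to the test, all 3 KO3 libraries lay above all 3 KO2 libraries for 4506 genes (31.9%) and below them for 4586 (32.5%). Fold changes are on the log2(count + 1) scale, which understates the change of low genes. Fitted in the same way, KO2 differed from KO1 at 3612 genes higher and 4015 lower, and KO3 from KO1 at 3740 higher and 3919 lower; these comparisons share libraries with the one described here.

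**Figure D1:**
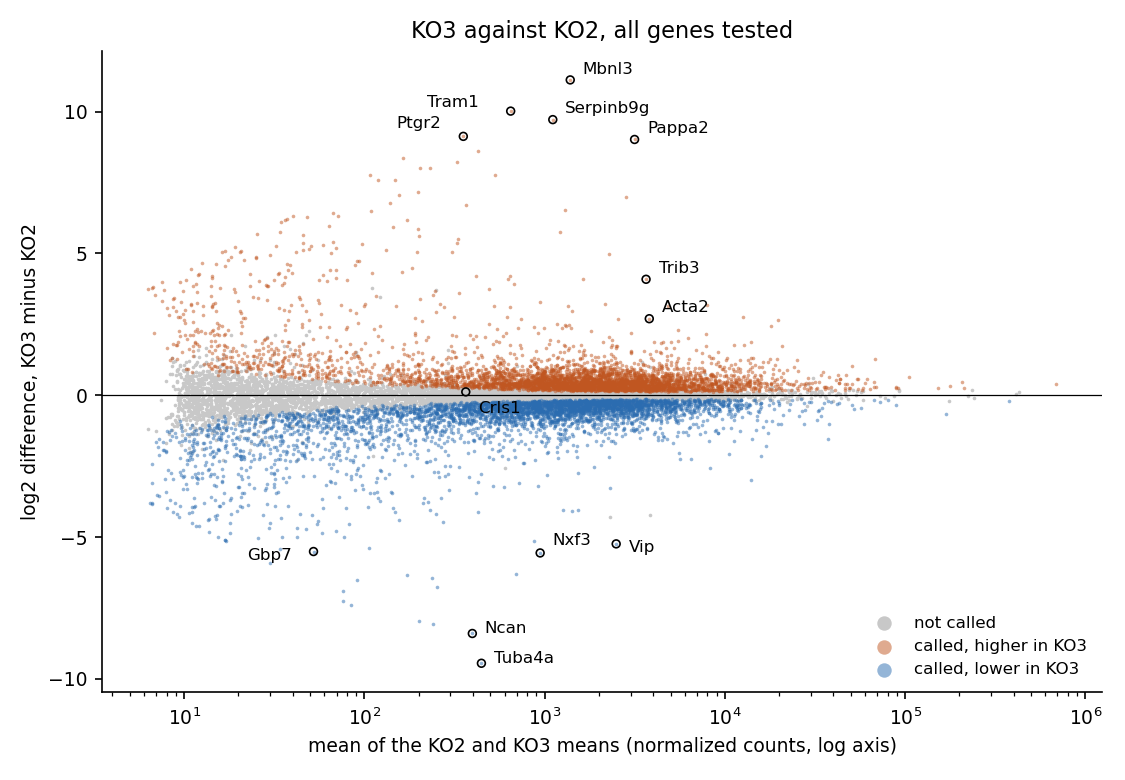
Log2 difference between KO3 and KO2 (vertical axis) against the mean normalized count (horizontal axis, log scale), 1 point per tested gene, coloured where limma called the gene at an adjusted p of 0.05. The cloud is centred on 0, and a thin set of genes lies beyond a log2 difference of 5 in either direction, up to 11.12 for Mbnl3 and down to -9.45 for Tuba4a.

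Crls1 itself (ENSMUSG00000027357.16, GRCm38 chromosome 2, 132846666 to 132866785, plus strand) was at 336, 338 and 374 normalized counts in KO2 and at 363, 372 and 408 in KO3, and the libraries of the lines overlapped. The means were 349 ± 21.1 and 381 ± 23.9 (SD, n = 3), against 815 in WT and 210 in KO1. The log2 difference was 0.12 (SE 0.09, limma adjusted p = 0.287), so the residual transcript was not shown to differ between the edited lines. Its neighbourhood on chromosome 2 was lower in KO3, with a running median of -0.44 over 51 genes. Relative to the median of its 50 nearest tested genes, Crls1 was higher in KO3 by 0.61 on the log2 scale (limma adjusted p = 5.10e-04). A transcript that carries small insertions or deletions is still counted as Crls1, so this level does not measure the enzyme.

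The largest differences were between near absence in one line and clear expression in the other. Mbnl3 (chromosome X), a muscleblind-like regulator of splicing, was at 0.933, 0 and 0 normalized counts in KO2 and at 2958, 2730 and 2626 in KO3. That was 1 read over the 3 KO2 libraries against 8430, a ratio of 9012 with a 95% counting interval of 1617 to 355980. WT was near the KO2 level at 2.16, and KO1 was intermediate at 537. Pappa2, a protease that cleaves IGF-binding proteins, was at 11.2, 17.2 and 7.03 in KO2 and at 6429, 6716 and 5739 in KO3 (log2 difference 9.02, SE 0.25, limma adjusted p = 2.24e-08). For this gene too WT was low, with a mean of 33.5, and KO1 high, with a mean of 4960.

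Tram1 and Ptgr2 showed the other arrangement, in which KO2 nearly lacked a transcript that the unedited cells made. Tram1 (chromosome 1, 13564698 to 13589910, minus strand), which encodes a translocating chain-associated membrane protein of the endoplasmic reticulum, was at 0.933, 0 and 0 in KO2 and at 1285, 1318 and 1282 in KO3. WT and KO1 were at 1410 and 1215, so KO2 was the line that stood apart. The ratio of KO3 to KO2 was 4217 (95% counting interval 756 to 166610; 1 read against 3945). The nearest tested genes on either side, looked up after this value was seen, were not silent in KO2: Ncoa2 was at 3569 there and 2985 in KO3, and Lactb2 at 678 and 1364. Ptgr2 (chromosome 12), a prostaglandin reductase, was at 0, 0.958 and 0 in KO2 and at 802, 748 and 570 in KO3, with 459 in WT and 3.36 in KO1.

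A cluster of serine protease inhibitor genes on chromosome 13 was higher in KO3 as a block. Between 32842092 and 34002794, 12 Serpinb genes were tested and limma called all 12 higher in KO3; this cluster was singled out after several of its genes appeared among the largest differences. Serpinb9g was at 1.87, 0 and 5.27 in KO2 and at 2297, 2226 and 2123 in KO3, a log2 difference of 9.72 (SE 0.53, adjusted p = 9.90e-07). WT was at 11.1 and KO1 at 402. Serpinb9f had 0 reads in KO2 against 1008 in KO3, at least 359-fold higher when 3 reads over the KO2 group are taken as the floor. Serpinb9d, Serpinb9e and Serpinb9c differed by 8.61, 8.21 and 7.60 on the log2 scale. The difference was smaller towards the ends of the cluster, at 1.12 for Serpinb1a and 0.66 for Serpinb6a, which were expressed in both lines, with means of 71.5 and 3799 in KO2. Members of this family are close in sequence and reads can be assigned to the wrong copy, so the values of single Serpinb9 genes are uncertain. The remaining genes of this rank were Gsta3, a glutathione transferase (log2 difference 8.03), Ostn, which encodes the secreted peptide osteocrin (8.02), and Elmo1, a partner of Rac exchange factors (7.75).

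In the other direction, Tuba4a (chromosome 1, 75214228 to 75219865, minus strand), an alpha-tubulin gene, was at 861, 924 and 888 in KO2 and at 0, 0 and 1.07 in KO3. The ratio of KO2 to KO3 was 2710 (95% counting interval 486 to 107077; 2897 reads against 1). WT was at 1746 and KO1 at 637, so here KO3 was the line that stood apart. The nearest tested genes on either side, Stk16 and Dnajb2, had mean levels of 1441 and 1174 in KO3. Stk16 ends at 75215606, within Tuba4a, so reads of the overlap may be assigned to either gene. Ncan, the brain proteoglycan neurocan, was at 799, 751 and 825 in KO2 and at 2.07, 0 and 3.2 in KO3 (log2 difference -8.40, SE 0.46, limma adjusted p = 9.51e-07). WT was at 887. Nxf3, a nuclear RNA export factor on chromosome X, fell in the same arrangement, with means of 3107 in WT, 1849 in KO2 and 38.6 in KO3.

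Several other genes that were lower in KO3 were instead raised in KO2 alone or in KO1 and KO2. Tie1, an endothelial receptor tyrosine kinase, was at 495, 488 and 518 in KO2 against 2.07, 1.75 and 10.7 in KO3, with 2.47 in WT and 1.36 in KO1. The sum of 5 endothelial markers, 522 to 606 in KO2 and 29 to 85.2 in KO3, was mostly Tie1 in KO2 and mostly Tek in KO3, while Kdr was at 0 in KO2. Vip, the precursor of vasoactive intestinal peptide, was at 4863, 4853 and 4858 in KO2 and at 136, 132 and 117 in KO3, with 271 in WT (log2 difference -5.24, SE 0.08, limma adjusted p = 2.47e-09). Cldn19, a tight junction claudin, had means of 480 in KO2, 0.984 in KO3 and 0.646 in WT. Chil1, a chitinase-like secreted protein, was at 1702 in KO2 and 1709 in KO1, against 47.4 in KO3 and 44 in WT. For each of these 4 genes the 3 KO2 libraries lay far above the 3 KO3 libraries.

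**Figure D2:**
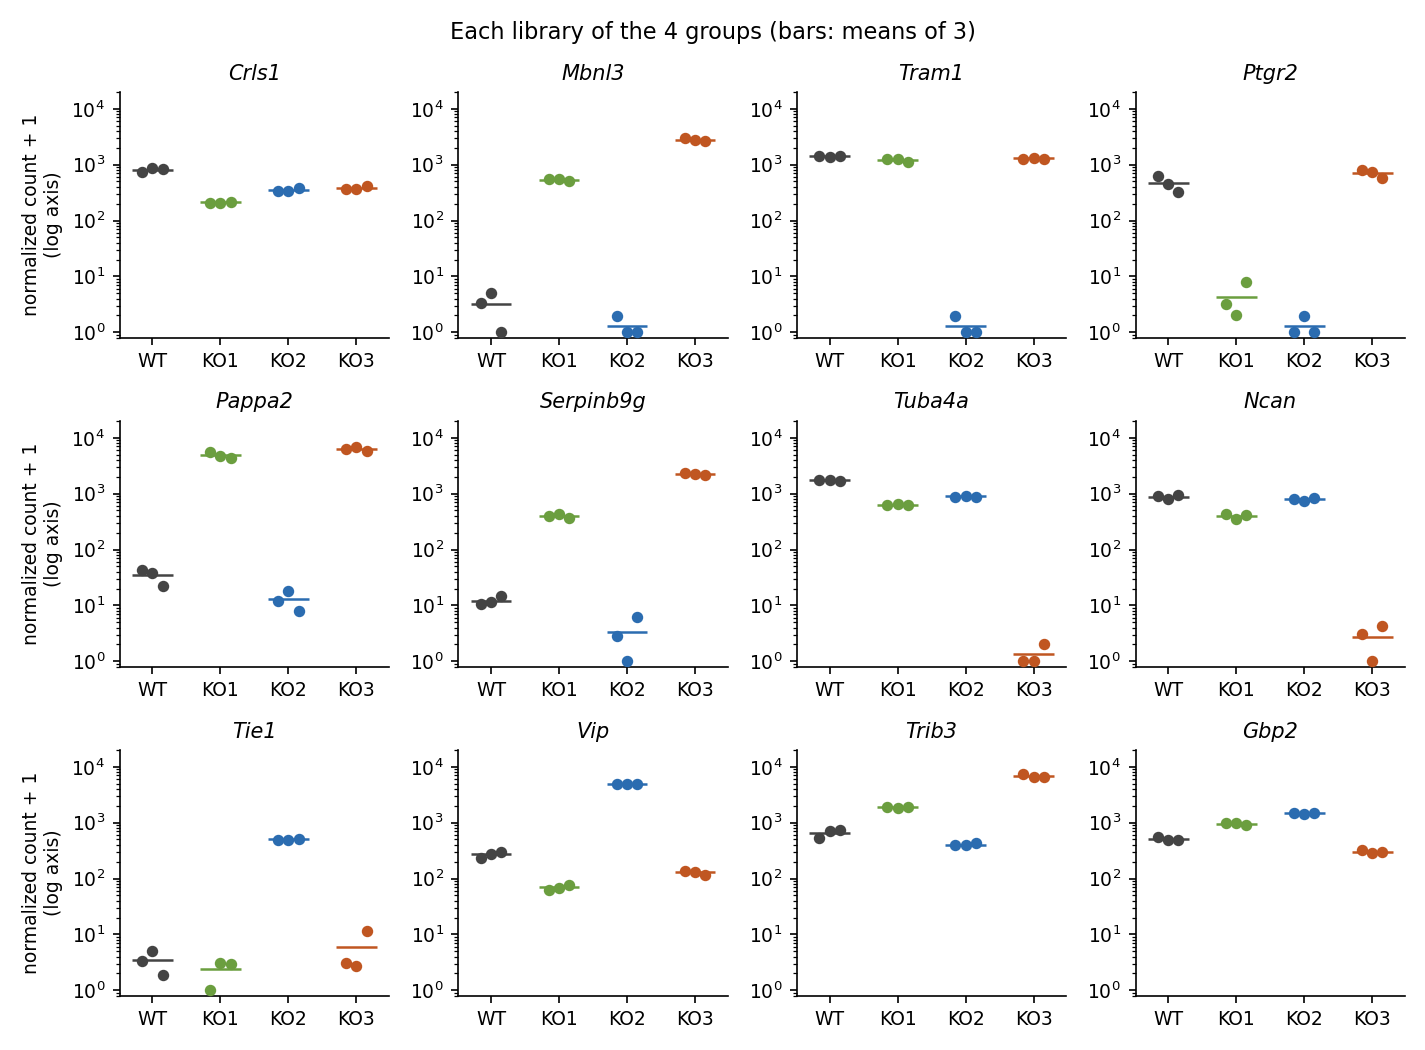
Normalized count + 1 on a log axis for 12 genes in each of the 12 libraries, with a bar at the mean of each group. Crls1 is below WT in every edited library and overlaps between KO2 and KO3, Tram1 is near 0 in KO2 only, Tuba4a and Ncan in KO3 only, and Mbnl3 and Pappa2 are at WT-like low levels in KO2 but high in KO3 and KO1.

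Genes with no read in any library of 1 line were few, and each passed the filter through the other line. The rule favours weakly expressed genes, since 1 read excludes a gene, as for Mbnl3, Tram1 and Ptgr2 in KO2 and Tuba4a in KO3. Of the tested genes, 17 had 0 reads in all KO2 libraries, 15 of them protein-coding, and 18 had 0 reads in all KO3 libraries, 13 of them protein-coding. In each direction 2 of them exceeded a mean of 100 in the other line. Those above it in KO3 were Serpinb9f and a predicted gene model, Gm2012, named here after its value of 215 was seen. With predicted models left out, the genes silent in KO2 that followed Serpinb9f by KO3 mean were Cadm1, an immunoglobulin-family adhesion molecule (at least 87.3-fold higher in KO3), Tmem14a (80.2), Pde3b, a cyclic nucleotide phosphodiesterase (74.5), Pax8, a paired-box transcription factor (43.1) and Sh3bgrl2 (42). Of the genes silent in KO3, Ccser1 was at 160, 178 and 169 in KO2, at least 171-fold higher, and Tnnt3, a fast skeletal muscle troponin T, at 191, 130 and 138, at least 155-fold higher. Vax2, a homeobox gene, and Vax2os, which overlaps it on chromosome 6, were both silent in KO3 and at 30.8 and 60.2 in KO2, and neither was silent in WT. Boc, a co-receptor for hedgehog ligands, and Usp26 each had means of 33.6 in KO2. Silence in 1 line was not always a loss from the WT level. WT had 0 reads for 6 of the 17 genes silent in KO2 and for 3 of the 18 silent in KO3. Cadm1 and Usp26 were at 0 in WT and KO1, and Pax8 was at 0 in WT. Tnnt3 and Sh3bgrl2 had WT means of 0.994 and 0.301. Tmem14a, Pde3b, Ccser1 and Boc had WT means of 32.7, 40.4, 77.3 and 16.8.

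Setting WT beside the 1725 genes that differed at least 2-fold shows how often each line was the one near the unedited level; the position rule was set after the data were seen. Of the 710 genes higher in KO3, WT lay at or beyond the KO2 end for 327 (46.1%) and at or beyond the KO3 end for 198 (27.9%), an end being taken as within 0.25 of the distance between the lines on the log2 scale. Of the 1015 genes lower in KO3, WT lay at the KO2 end for 298 (29.4%) and at the KO3 end for 447 (44%). In both directions, more genes had WT beside the line with the lower level than beside the line with the higher level. KO1 lay between the lines for 348 of the 710 and 460 of the 1015 genes.

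Gene lists were used to describe groups of genes by function; 43 were counted, and for each the members called are read against the 29% of all genes called higher and 29.1% called lower. A list near those shares on both sides is no result about its members. The lists departed from the background most on the side of the integrated stress response and the cell cycle, which were higher in KO3, and of interferon-stimulated genes, MHC class I presentation and receptors for prostaglandins, purines, amines and peptides, which were lower.

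**Figure D3:**
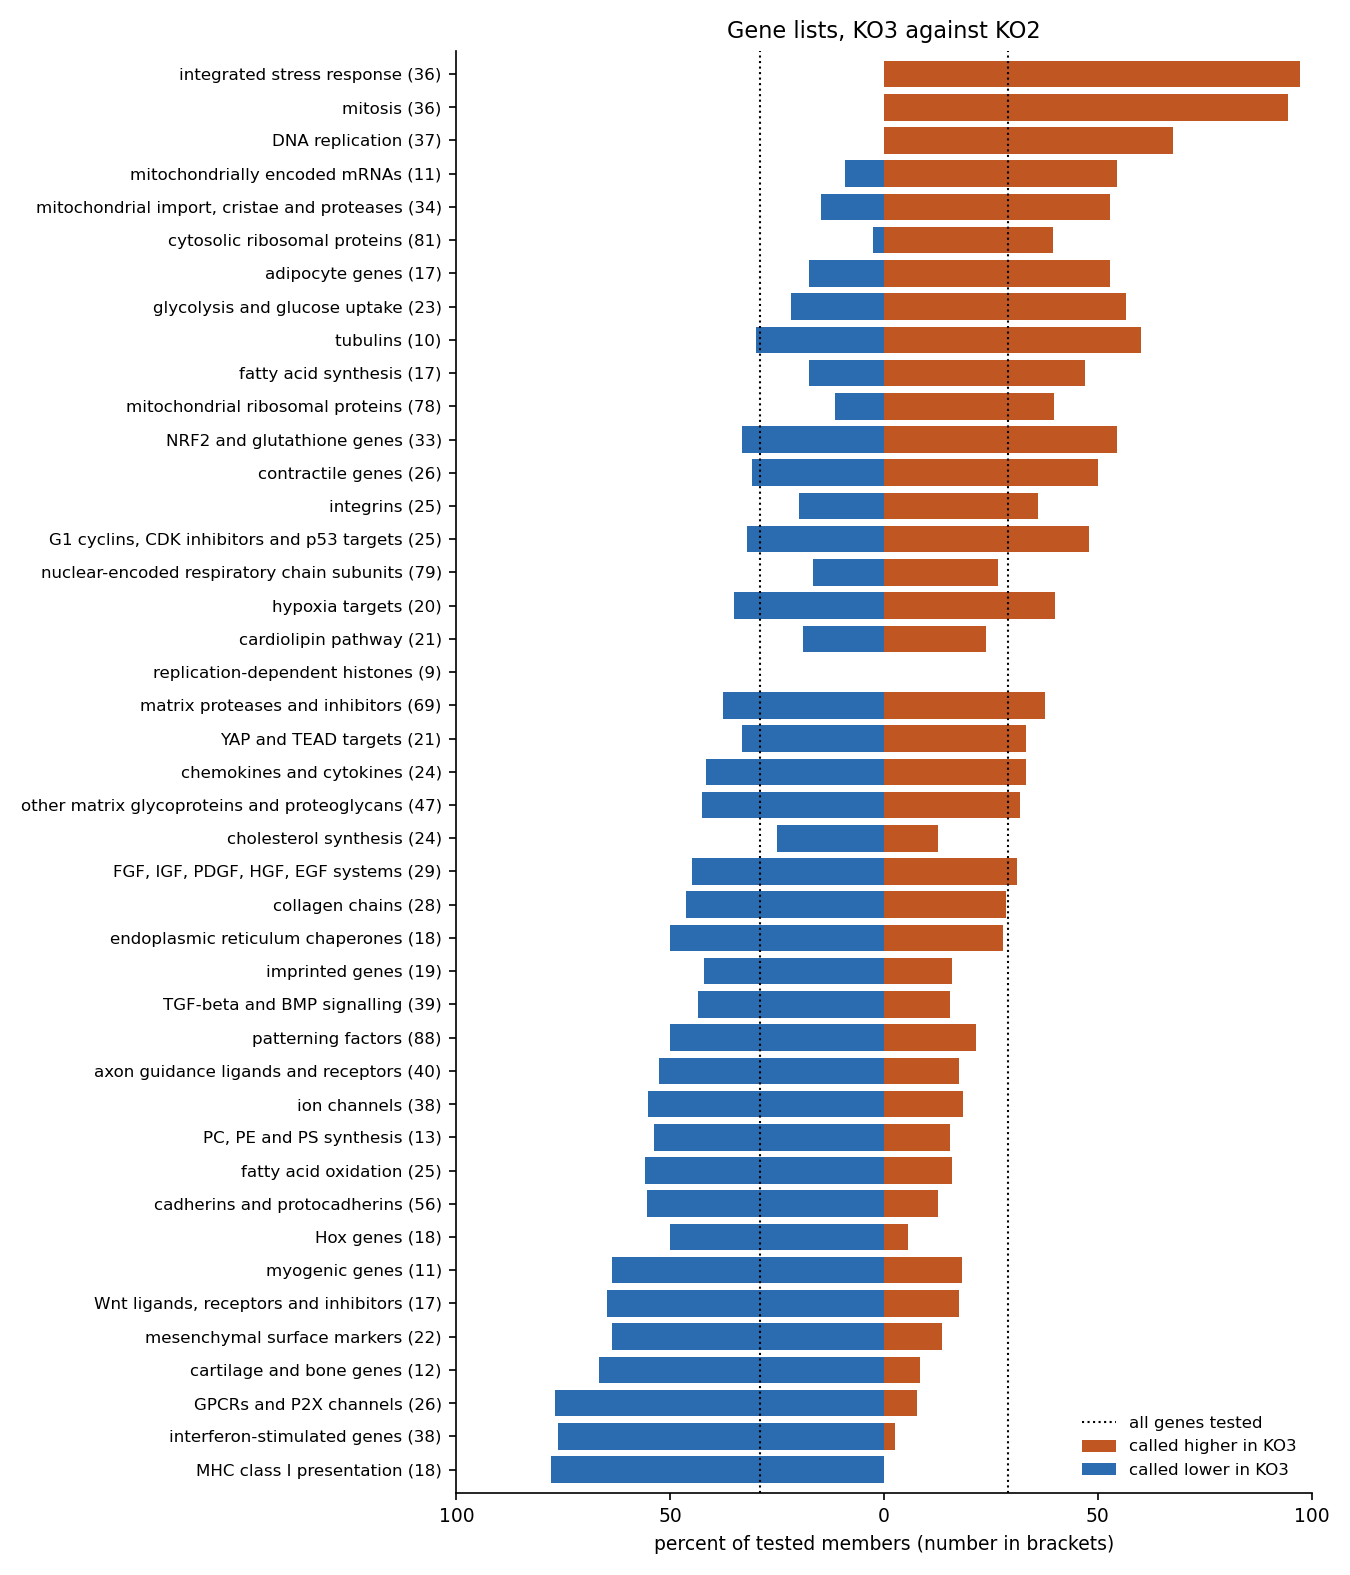
Percent of the tested members of each gene list that limma called higher (right) or lower (left) in KO3, with the number tested in brackets and the shares over all genes as dotted lines (29% and 29.1%). The integrated stress response (35 of 36 higher) and mitosis (34 of 36 higher) are at one end, and MHC class I presentation (14 of 18 lower) and interferon-stimulated genes (29 of 38 lower) at the other.

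Integrated stress response genes were higher in KO3 almost without exception. Of 36 tested members, limma called 35 higher, 26 of them at least 2-fold, with a median log2 difference of 1.31 against 0.00 over all genes tested. The remaining member was Cebpb (0.12, adjusted p = 0.531). The members lie on 13 chromosomes. With the median of neighbouring genes subtracted, in edgeR and in DESeq2, and on leaving out any 1 library, 35 of 36 were again higher.

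Among the regulators, Trib3, a pseudokinase that feeds back on ATF4, was at 395, 392 and 423 in KO2 and at 7415, 6585 and 6699 in KO3, a log2 difference of 4.09 (SE 0.07, limma adjusted p = 3.53e-09). Ddit3, which encodes the transcription factor CHOP, was at 705, 648 and 709 in KO2 and at 4466, 4101 and 4630 in KO3 (2.68, SE 0.07). Neither gene's libraries came near each other between the lines. Atf4 was higher by 0.99, Atf5 by 1.66, and Ppp1r15a, the regulatory subunit that directs eIF2-alpha dephosphorylation, by 1.73. Chac1, a glutathione-degrading enzyme, was at 317, 353 and 292 in KO2 and at 1655, 1599 and 1763 in KO3 (2.38).

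The enzymes and transporters of the response moved with the regulators. In serine synthesis and mitochondrial one-carbon metabolism, Phgdh was higher in KO3 by 1.39, Psat1 by 0.93, Psph by 2.26, Shmt2 by 1.88 and Mthfd2 by 1.68 on the log2 scale. Asns, the asparagine synthetase, was at 4316, 4911 and 5088 in KO2 and at 13949, 13664 and 13093 in KO3 (1.51), and Gpt2, mitochondrial alanine aminotransferase, was higher by 1.78. Of the amino acid transporters, Slc7a11, the cystine importer, was at 145, 155 and 231 in KO2 and at 1700, 2011 and 1414 in KO3 (3.28, SE 0.19), and Slc7a5 was higher by 2.16 and its partner Slc3a2 by 1.31. Cth, which makes cysteine from cystathionine, was higher by 3.13. The 5 aminoacyl-tRNA synthetases of the list, Gars, Wars, Nars, Aars and Sars, were higher by 1.01 to 1.32.

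**Figure D4:**
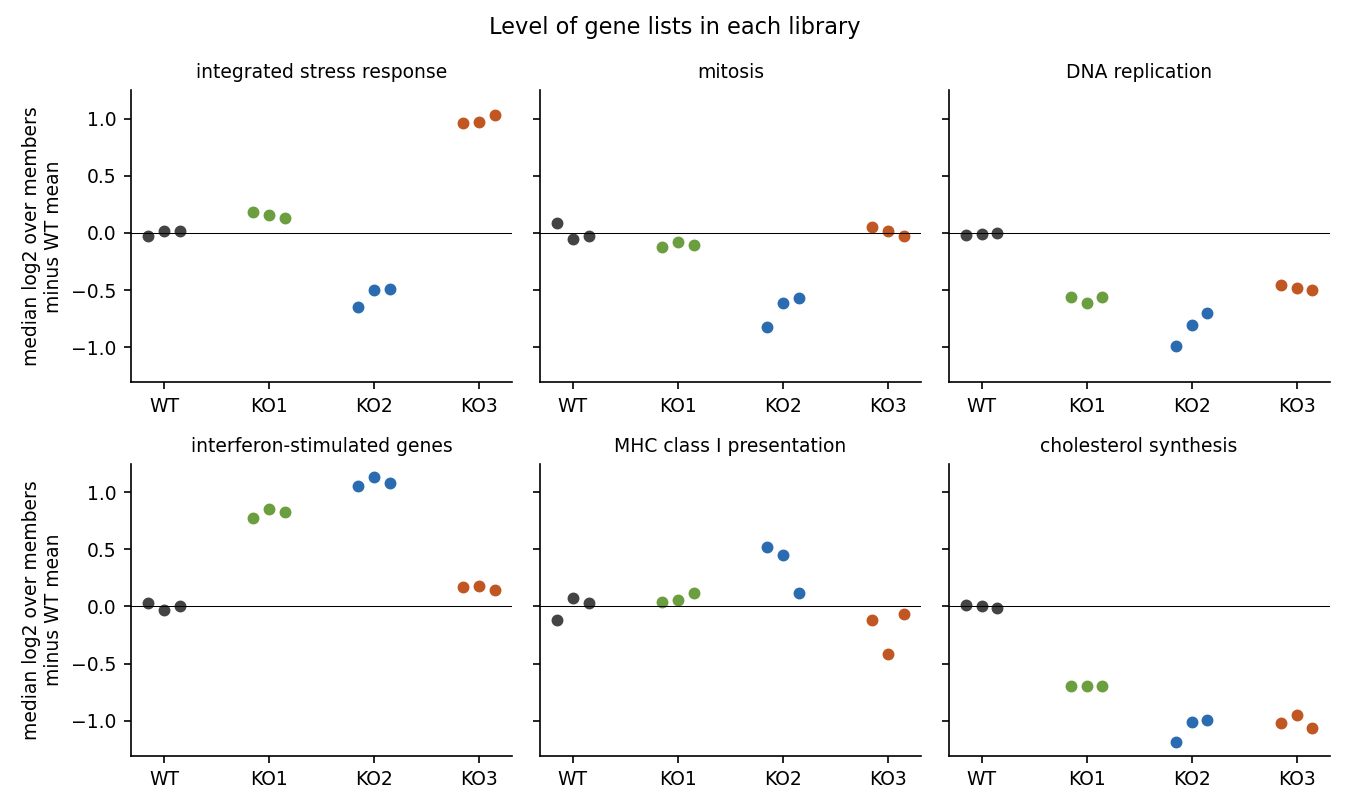
Median over the tested members of 6 gene lists of the log2 level in each of the 12 libraries, relative to the WT mean of each gene. For the integrated stress response KO2 is below WT (-0.65 to -0.49) and KO3 above it (0.96 to 1.03), and for interferon-stimulated genes KO2 is above WT (1.05 to 1.13) while KO3 is near it (0.14 to 0.18).

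Relative to WT, the lines lay on opposite sides for this response. The median over members was -0.65 to -0.49 in the KO2 libraries and 0.96 to 1.03 in the KO3 libraries, with KO1 at 0.13 to 0.18. Trib3, for example, had a WT mean of 665 and a KO1 mean of 1869, against 403 in KO2 and 6900 in KO3. The groups did not overlap in this measure, which is given as a description.

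Promoters are shown for members whose transcripts differed together, as the 250 bases upstream of the annotated start (RefSeq windows, GRCm38.p6), 5′ to 3′ on the gene's strand, with the motif of interest in capitals on whichever strand it was found. The motifs and the genes shown were chosen after the lists had been counted. For the integrated stress response the motif was TGATGNAA, the C/EBP-ATF response element core.
Chac1, chr2:119350992-119351241 (plus strand): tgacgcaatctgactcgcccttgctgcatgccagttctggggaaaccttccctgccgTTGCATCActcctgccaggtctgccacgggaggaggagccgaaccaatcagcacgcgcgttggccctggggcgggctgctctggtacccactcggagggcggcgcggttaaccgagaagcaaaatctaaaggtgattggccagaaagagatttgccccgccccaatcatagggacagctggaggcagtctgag
Asns, chr6:7693210-7693459 (minus strand): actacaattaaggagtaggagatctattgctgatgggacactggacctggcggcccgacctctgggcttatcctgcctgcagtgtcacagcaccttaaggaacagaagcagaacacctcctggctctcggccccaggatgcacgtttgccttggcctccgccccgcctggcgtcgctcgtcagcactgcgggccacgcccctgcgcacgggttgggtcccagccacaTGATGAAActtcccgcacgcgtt
The first base of the match was 193 bases upstream of the start in Chac1, where the element lies in reverse, and 23 in Asns. Of 31 members with a window, 9 (29%) held the motif on either strand, in any of a gene's windows, against 2.47% of the 10112 tested genes with a window and 3.45% of all 32851 windows. The 9 were Aars, Asns, Chac1, Gars, Herpud1, Nupr1, Pycr1, Slc7a11 and Vldlr. Trib3, Ddit3 and Psph, with differences of 4.09, 2.68 and 2.26, had no match in this window. A match is a string of letters, not evidence of binding. These shares are over all listed members with a window, called or not. They describe the list and not the difference between the lines, here and for the motifs below.

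Interferon-stimulated genes were lower in KO3. Of 38 tested members, 29 were called lower by limma, 12 of them at least 2-fold, and 1 higher, with a median log2 difference of -0.74. Gbp2, an interferon-induced GTPase, was at 1462, 1441 and 1480 in KO2 and at 321, 283 and 299 in KO3 (-2.28, SE 0.08, adjusted p = 7.44e-08). Trim30a was at 8879, 7994 and 8142 in KO2 against 3463, 3546 and 3220 in KO3 (-1.29), and Ddx58, the cytosolic RNA sensor RIG-I, had means of 2327 and 1230. Both lines' libraries were far apart for these genes. Gbp7 was almost absent from KO3, with means of 103 and 1.34.

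Single antiviral effectors differed widely in size. Oas1a, which makes the second messenger that activates RNase L, was at 124, 104 and 88.8 in KO2 and at 4.15, 2.63 and 5.33 in KO3 (-4.43, SE 0.29). Ifit1, which binds RNA lacking a self cap, was at 66.2, 56.5 and 48.4 against 6.22, 5.26 and 5.33 (-3.13). Their relatives Oas3 (-1.17) and Ifit3 (-0.23) were not called, and Ifit2 was lower (-0.36). Isg15, a ubiquitin-like modifier, had means of 322 and 132. Of the transcription factors of the response, Stat2 differed by -0.19 and Irf9 by -0.31, less than the list median of -0.74, and Irf1 by -0.77. The single member higher in KO3 was Ifi204, of the DNA-sensing HIN-200 family, with means of 497 and 1188. Relative to WT, the median over members was 1.05 to 1.13 in KO2 and 0.14 to 0.18 in KO3, so the list stood above WT in KO2 and close to it in KO3. KO1 was at 0.77 to 0.85. GBP, OAS and IFIT genes have near copies, and the split of reads among them is uncertain.

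For these genes the motif was the interferon-stimulated response element core, GAAA followed by any 2 bases and a further GAAA.
Ifit1, chr19:34640639-34640888 (plus strand): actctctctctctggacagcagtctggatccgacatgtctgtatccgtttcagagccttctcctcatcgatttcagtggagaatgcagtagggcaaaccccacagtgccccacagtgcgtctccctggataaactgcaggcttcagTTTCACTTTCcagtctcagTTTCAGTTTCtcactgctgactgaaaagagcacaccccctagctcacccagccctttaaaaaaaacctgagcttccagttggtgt
Gbp2, chr3:142620413-142620662 (plus strand): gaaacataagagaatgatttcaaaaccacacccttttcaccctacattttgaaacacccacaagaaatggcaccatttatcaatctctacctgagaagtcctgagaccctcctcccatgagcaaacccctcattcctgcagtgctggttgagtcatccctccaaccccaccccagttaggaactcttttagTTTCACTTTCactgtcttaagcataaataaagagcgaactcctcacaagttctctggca
Oas1a, chr5:120907526-120907775 (minus strand): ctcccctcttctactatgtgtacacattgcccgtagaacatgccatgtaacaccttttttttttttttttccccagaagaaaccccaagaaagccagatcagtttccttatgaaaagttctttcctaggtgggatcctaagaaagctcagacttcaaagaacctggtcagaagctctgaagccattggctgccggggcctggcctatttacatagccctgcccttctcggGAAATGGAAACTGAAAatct
Ifit1 and Oas1a each held 2 matches, and those of Oas1a overlap each other. Of 28 members with a window, 17 (60.7%) held the motif on either strand, against 3.11% of tested genes with a window and 2.98% of all windows. Among the 17, Gbp2, Gbp3, Gbp7, Ifit1 and Oas1a differed by more than 2 on the log2 scale, while Oas3 (-1.17), Ifit3 (-0.23) and Ifi203 (0.16) held the motif and were not called.

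MHC class I presentation genes, which overlap the interferon response in their control, were also lower in KO3, with 14 of 18 tested members called lower and a median of -0.54. Tap1 and Tap2, the peptide transporter of the endoplasmic reticulum, had means of 490 and 1290 in KO2 and 236 and 617 in KO3. Tapbp, which bridges that transporter to MHC class I, was at 4863, 4541 and 4420 in KO2 and at 2442, 2154 and 2402 in KO3 (-0.98, SE 0.07, limma adjusted p = 3.28e-06). B2m, the light chain, was lower (-0.35), with means of 12635 and 9914. Of the 14 tested members on chromosome 17, 10 were lower although the median of that chromosome was higher in KO3 (0.24). H2 genes are near copies of each other and their individual values are uncertain.

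Genes of mitosis were higher in KO3. Of 36 tested members, 34 were called higher, 3 of them at least 2-fold, and the median was 0.65. Prc1, which bundles the central spindle, differed by 1.17, Anln by 1.04 and Tpx2, a spindle assembly factor, by 1.02. Cdk1, the kinase that drives entry into mitosis, was at 3173, 3746 and 4245 in KO2 and at 7257, 7370 and 6597 in KO3 (0.94, SE 0.10, limma adjusted p = 4.94e-05). Kif23 was at 2626, 2774 and 2989 against 4995, 5519 and 5184. The proliferation marker Mki67 was higher by 0.51. Mad2l1 (0.04) and Bub1b (0.11) were not called.

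DNA replication genes differed less, with 25 of 37 tested members called higher and a median of 0.43. Pole, the catalytic subunit of DNA polymerase epsilon, was higher by 1.08, Cdt1, a licensing factor, by 0.86, and Prim1, a primase subunit, by 0.79; Pcna (0.12) and Mcm5 (0.12) were not called. The median level relative to WT was -0.82 to -0.57 in KO2 and -0.03 to 0.05 in KO3 for mitosis, and -0.99 to -0.70 and -0.50 to -0.46 for replication. KO2 thus held the lowest level of the 4 groups on either list, and only for mitosis did KO3 lie at the WT level. Cell density at harvest is not given, and its part in these values was not tested. In the list of G1 cyclins, CDK inhibitors and p53 targets, 12 of 25 were higher and 8 lower, with a median of 0.18. Ccnd1, cyclin D1, was higher in KO3 by 0.64, while Cdkn1b, an inhibitor of cyclin-dependent kinases, was lower (-0.38). The p53 targets were not of 1 direction, with Sesn1 (-1.08) and Fas (-1.28) lower and Plk2 (0.86) and Bbc3 (0.67) higher.

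The mitosis promoters were searched for the cell cycle homology region core TTTGAA and for the CCAAT box.
Cdk1, chr10:69352913-69353162 (minus strand): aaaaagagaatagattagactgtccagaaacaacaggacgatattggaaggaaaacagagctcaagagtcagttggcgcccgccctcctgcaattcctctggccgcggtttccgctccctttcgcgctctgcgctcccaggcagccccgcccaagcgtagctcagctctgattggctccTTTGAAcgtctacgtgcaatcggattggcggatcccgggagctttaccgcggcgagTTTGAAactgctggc
Capitals mark the 2 TTTGAA matches, 71 and 15 bases upstream of the start. Kif23 had no TTTGAA match in its window, and Prc1 had a match in 1 of its windows and none in the other. TTTGAA was in 10 of 31 members with a window (32.3%) against 13% of tested genes with a window, and CCAAT in 23 of 31 (74.2%) against 41.7%. Over all windows the shares were 16% and 33.8%.

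Genes of the mitochondrion itself, the organelle in which the edited enzyme works, showed smaller and mixed differences. In the cardiolipin pathway 5 of 21 tested members were higher and 4 lower in KO3, with a median of 0.07. Ptpmt1, the phosphatase that produces phosphatidylglycerol, was at 120, 137 and 117 in KO2 and at 248, 247 and 276 in KO3, the only member past 2-fold (1.04, SE 0.12, limma adjusted p = 8.88e-05). Pgs1, the preceding enzyme, was higher by 0.17. Cds2, which makes CDP-diacylglycerol, was lower (-0.49), and was no longer called once the median of its neighbours was subtracted (-0.07, adjusted p = 0.362). Taz, the tafazzin transacylase that remodels cardiolipin, differed by -0.15 and was not called. In synthesis of the other phospholipids 7 of 13 were lower, among them Pisd, the phosphatidylserine decarboxylase of mitochondria (-0.50), and Chka, choline kinase, was higher by 1.70.

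Of mitochondrially encoded mRNAs, 6 of 11 were higher, with a median of 0.32. Of these, mt-Nd2 had means of 82658 in KO2 and 128471 in KO3, and mt-Co1 592924 and 785316, although quantile normalization set the latter difference to 0.00. Mitochondrial ribosomal protein genes were higher for 31 of 78 and lower for 9 (median 0.14); the lower count was 5 without KO2 replicate 1 and 4 without KO2 replicate 2 or KO3 replicate 2. Nuclear-encoded respiratory chain subunits were higher for 21 and lower for 13 of 79 (median 0.05), shares below the background in both directions. In the import, cristae and protease list 18 of 34 were higher. Its leading members were Lonp1, a matrix protease, at 3540, 3550 and 3707 in KO2 and at 11851, 11766 and 12656 in KO3, and Hspa9, the matrix HSP70 that pulls proteins in, at 8830, 9728 and 10128 against 31351, 33372 and 31367. Both differed by 1.75 on the log2 scale, with the KO3 libraries more than 3-fold above the KO2 libraries in the mean (3.35). The chaperonin genes Hspd1 and Hspe1 were higher by 0.46 and 0.37. The translocase genes Timm8a1, Timm10 and Timm9 were higher by 0.89, 0.81 and 0.73, and the cristae gene Apool lower (-0.74). Cytosolic ribosomal protein genes were higher for 32 of 81, with a median of 0.18. Without KO3 replicate 1 that count was 18, without KO3 replicate 3 it was 19, with all 4 groups in the fit 17, and with quantile normalization 14.

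Endoplasmic reticulum chaperones did not follow the integrated stress response. Of 18 tested members 9 were lower and 5 higher (3 without KO2 replicate 2), with a median of -0.12. The protein disulfide isomerases Pdia6 (-0.91), Pdia3 (-0.74) and Pdia4 (-0.74) were lower, and Hspa5, the chaperone BiP, was higher by 0.26. Ero1l, the oxidase that recharges those isomerases, was at 1431, 1657 and 1599 in KO2 and at 14462, 15080 and 13569 in KO3 (3.20, SE 0.07, limma adjusted p = 1.48e-08). Of the hypoxia targets, the list that holds Ero1l, 8 of 20 were higher and 7 lower. The median was -0.04 and the range -0.65 to 3.20, so the list did not move as a group. Vegfa (1.67) and Ndrg1 (1.88) were among the higher ones. In glycolysis 13 of 23 were higher and 5 lower. The lactate and pyruvate transporter Slc16a1 (1.96) and hexokinase Hk2 (1.29) were among the higher ones, while Ldhb was lower (-0.95).

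Antioxidant genes differed in both directions. In the NRF2 and glutathione list 18 of 33 were higher and 11 lower. Gclc and Gclm, the subunits of the enzyme that starts glutathione synthesis, were higher by 1.53 and 1.06, Txnrd1, thioredoxin reductase, by 1.16, and Nqo1 by 0.95. Hmox1, heme oxygenase 1 (-0.48), and G6pdx, glucose-6-phosphate dehydrogenase (-0.38), were lower. Aldh3a1 averaged 2473 in KO2 and 10046 in KO3, against 54.5 in WT and 3188 in KO1. Of the glutathione transferases, those of the alpha class were higher, from 0.85 for Gsta4 to 8.03 for Gsta3, whereas Gstt1 (-3.10), Gstt3 (-1.06), Gstm1 (-0.66) and Gstm2 (-0.72) were lower. The genes and classes named from this list were chosen after their values were seen.

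Lipid metabolism differed in part. Fatty acid oxidation genes were lower for 14 of 25 and higher for 4 (2 without KO2 replicate 2), with a median of -0.21. The acyl-CoA dehydrogenases Acadm (-0.87) and Acads (-0.86) were lower, and Pdk4, the kinase that shuts pyruvate dehydrogenase, was higher, with means of 49.5 and 334. Fatty acid synthesis genes were higher for 8 of 17, Fasn by 0.53. Cholesterol synthesis was a list on which the lines hardly differed, with 3 of 24 members higher (6 without KO2 replicate 3), 6 lower and a median of -0.03. Both lines were below WT on it, at -1.19 to -0.99 in KO2 and -1.06 to -0.95 in KO3.

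Genes that mark mesenchymal identity and differentiation differed by lineage, with surface markers and cartilage and bone genes lower more often and adipocyte genes higher more often in KO3. Of 22 surface markers, 14 were lower. Pdgfra, the alpha receptor of platelet-derived growth factor, was at 27081, 26087 and 25729 in KO2 and at 7808, 7763 and 7174 in KO3 (-1.80, SE 0.05, limma adjusted p = 3.22e-08), with 7355 in WT, so that KO2 stood apart. Cd34 averaged 73.3 in WT and 2528 in KO1, against 4425 in KO2 and 1854 in KO3. Cartilage and bone genes were lower for 8 of 12 with a median of -1.35, among them Sox9, the cartilage transcription factor, at 6518, 6337 and 6417 against 2051, 2044 and 2317, and Phex (-1.94). The 1 member called higher was Runx2, by 0.24, with means of 1454 in KO2 and 1717 in KO3. Without KO2 replicate 1 the count called higher was 0. Of 17 adipocyte genes 9 were higher and 3 lower (1 with quantile normalization). The median difference was 0.18 and the lowest -3.93. Among the higher ones, Pparg, the adipocyte nuclear receptor, was at 76.5, 73.8 and 88.8 in KO2 and at 537, 557 and 547 in KO3 (2.77). Lpl was higher by 1.15. Relative to WT, the median over members was 0.60 to 0.96 in KO2 and 0.51 to 0.56 in KO3, so by this measure the list was not higher in KO3. The summed level of 5 adipocyte markers was 85.3 to 105 in KO2 and 551 to 570 in KO3, nearly all of it Pparg; Cebpa was at 0 reads in every KO2 and KO3 library, and Adipoq at a mean of 0.639 in KO2 and 0 in KO3.

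Contractile genes did not move as a group, with 13 of 26 higher (8 with quantile normalization) and 8 lower. Acta2, smooth muscle alpha-actin, was at 922, 1044 and 1091 in KO2 and at 6723, 6322 and 6728 in KO3 (2.70, SE 0.07, limma adjusted p = 1.85e-08), with 8670 in WT and 6783 in KO1. KO2 was thus the line in which Acta2 was low. Actg2 was also higher in KO3 (3.20), while Tagln (-2.16) and Cnn1 (-1.77), markers of the same smooth muscle programme, were lower. The summed level of 5 smooth muscle markers was 1071 to 1264 in KO2 and 6365 to 6769 in KO3, nearly all of it Acta2, and Myocd, the defining coactivator, was at a mean of 0.319 and 0. Zyx, a focal adhesion protein, was at 19851, 22983 and 24542 in KO2 against 10078, 9637 and 11051 in KO3.

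The matrix differed gene by gene. Collagen chains were higher for 8 of 28 and lower for 13, other matrix glycoproteins and proteoglycans for 15 and 20 of 47, and matrix proteases and their inhibitors for 26 and 26 of 69. Fbln2, fibulin 2, was at 5618, 5493 and 5172 in KO2 and at 33286, 31898 and 36058 in KO3 (2.64, SE 0.06, limma adjusted p = 1.67e-08). Its relatives Fbln5 and Efemp2 went the other way, by -1.33 and -2.04. Col3a1 averaged 884 in KO2 and 3664 in KO3, against 148 in WT and 7939 in KO1, so that all edited lines were above WT and KO3 lay between the other edited lines. Mmp11, a stromelysin-family protease, had means of 65 and 1224. Of the integrins, Itgb5 was higher (353 against 2000) and Itgb4 lower (471 against 25.4).

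Signalling receptors and their ligands were lower more often than higher. A list of receptors for prostaglandins, purines, amines and peptides was lower for 20 of 26 with a median of -0.98; it held 21 G protein-coupled receptors, 17 of them lower, and 5 ATP-gated channels, 3 of them lower, a split made after the values were seen. Ptgfr, the prostaglandin F receptor, had means of 2898 in KO2 and 176 in KO3, and the sphingosine phosphate receptors S1pr3 and S1pr1 differed by -1.62 and -1.31. P2rx3, the ATP-gated channel that was higher, was at 44.2 in KO2 and 2397 in KO3, with 30.8 in WT and 1172 in KO1. Ion channel genes were lower for 21 of 38, Wnt ligands, receptors and inhibitors for 11 of 17 and axon guidance genes for 21 of 40. In the Wnt list Lgr4, the R-spondin receptor, had means of 21129 and 7288, and in axon guidance Nrp2, a semaphorin receptor, was higher in KO3 (1082 against 4954). TGF-beta and BMP genes were lower for 17 of 39, including Tgfbr2 (-1.28).

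Growth factor systems held large differences in both directions. Igf2r, the clearance receptor for IGF2, was at 400, 400 and 462 in KO2 and at 4004, 3913 and 3772 in KO3 (3.21, SE 0.07, limma adjusted p = 1.67e-08), with 10830 in WT and 3152 in KO1. Hgf, hepatocyte growth factor, was lower, with means of 1670 and 417, but was at 15.7 in WT. Of the imprinted genes, to which Igf2r belongs, 3 of 19 were higher and 8 lower; Meg3 (-4.03) and Rtl1 (-3.46), neighbours in the Dlk1 domain, were lower. Meg3 varied widely within KO3, at 7.26, 27.2 and 69.3 against 278, 497 and 513 in KO2.

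Patterning genes were lower on balance. Of 88 T-box, paired, LIM and other patterning factors, 44 were lower and 19 higher; Osr1 had means of 10505 and 4102, and Gata2 1560 and 451. Of 18 Hox genes 9 were lower. The lower ones included 7 of 9 on chromosome 6, where Hoxa3 had means of 1566 and 699. Chromosome 6 as a whole was lower in KO3, as described next. Cadherins and protocadherins were lower for 31 of 56 and higher for 7. Of these, 27 of the 42 on chromosome 18 were lower, where the clustered protocadherins lie side by side and share 3′ exons within the alpha and gamma clusters. With the median of neighbouring genes subtracted, 18 cadherins and protocadherins were lower and 11 higher. Reads in the shared exons can be assigned to several members, so their values are not independent.

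Differences were also arranged along chromosomes. The median log2 difference was 0.28 on chromosome 10, with 361 of 711 genes higher and 110 lower, and 0.24 on chromosome 17, with 340 of 703 higher and 98 lower. It was -0.24 on chromosome 6, with 341 of 703 genes lower, and -0.32 on chromosome X, with 262 of 455 lower. Chromosome 1 was at 0.16 and chromosome 8 at -0.11, and the other autosomes lay between -0.08 and 0.10. The same 4 chromosomes kept their direction in edgeR, in DESeq2 and on leaving out any 1 library.

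**Figure D5:**
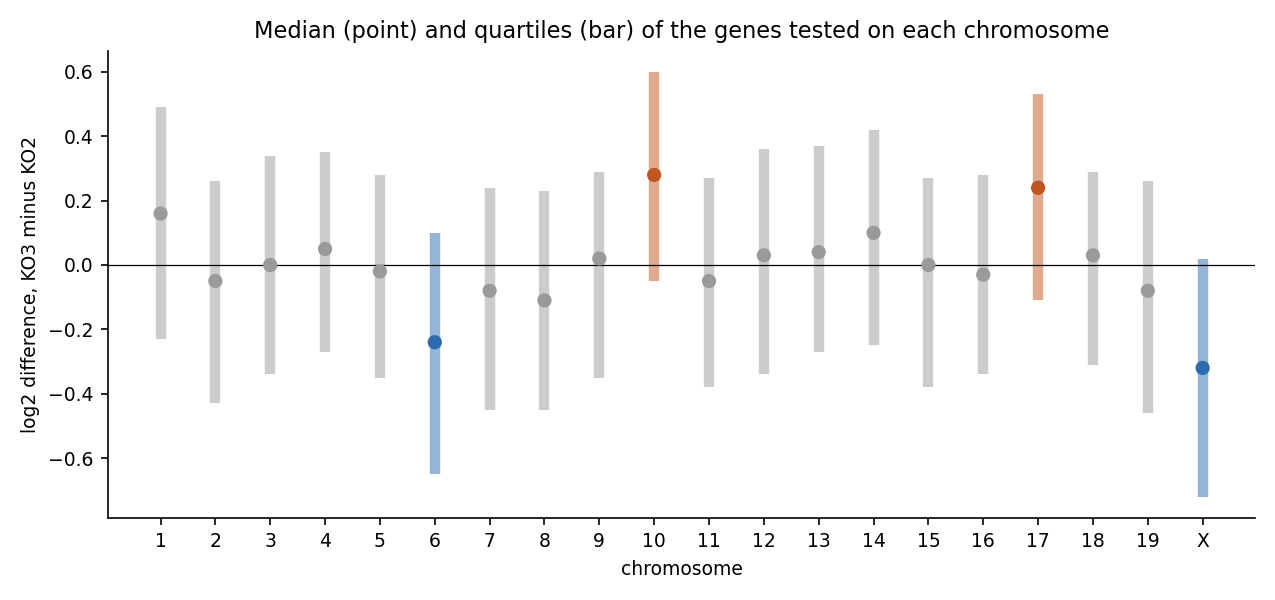
Median (point) and quartiles (bar) of the log2 difference between KO3 and KO2 over the genes tested on each chromosome, coloured where the median is beyond 0.2. Chromosomes 10 (0.28) and 17 (0.24) are higher in KO3, and chromosomes 6 (-0.24) and X (-0.32) lower.

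Within chromosomes, the running median over 51 tested genes passed 0.3 in size over at least 20 genes in 22 stretches, 9 higher and 13 lower in KO3; this limit was set after the data were seen. The longest by gene number was on chromosome X, from 94188707 to 162779092, with 198 tested genes and a median of -0.43, where the median against WT was 0.06 in KO2 and -0.34 in KO3. On chromosome 2, 132 genes between 104754795 and 125217512 had a median of -0.42, and on chromosome 8, 98 genes between 69209038 and 72492614 had -0.36. That stretch of chromosome 8 holds Ncan, whose difference of -8.40 is far larger. On chromosome 10, 114 genes between 117750621 and 130571793 had a median of 0.42, with KO2 at the WT level (-0.01) and KO3 above it (0.38). In these data a difference in gene dose and a regional difference in regulation cannot be told apart.

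Markers of fibroblasts were present in both lines. The summed level of 12 fibroblast markers was 926639 to 976014 in KO2 and 891090 to 911363 in KO3, with 10 tested, 2 higher and 4 lower; the defining fibroblast genes Lum and Dcn were at 0 and 1 read respectively in each line, so these cells lack them. Of the defining markers of other types, Myod1, Myog, Snap25 and Olig2 were at 0 in both lines. The summed levels in KO2 and KO3 were 212 to 236 and 326 to 341 for 6 epithelial markers, mostly Cdh1. They were 180 to 230 and 118 to 133 for 6 immune markers, mostly Csf1r and Cd68. For 6 neural markers they were 175 to 202 and 124 to 200, mostly Tubb3 (means of 157 and 148). For 5 skeletal muscle markers they were 209 to 260 and 149 to 158, mostly Des (228 and 154). Des (-0.56), Myh3 (-3.11), Csf1r (-1.17), the cartilage marker Acan (-2.09) and the neural marker Gfap (-2.16) were called lower in KO3, and Cdh1 (0.73) higher. The lines overlapped for Gfap, at 42.9, 25.9 and 25.5 in KO2 and at 3.11, 1.75 and 29.8 in KO3. For 6 markers of cartilage or bone the summed levels were 7843 to 7924 in KO2 and 3629 to 4081 in KO3, mostly Sox9 and Runx2. Sox9 was lower in KO3 (-1.59), while Runx2 was higher (0.24). The part of these markers in the differences between the lines was not tested. In bulk RNA, fewer cells in a state and less RNA per cell cannot be told apart.

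By annotation class, 62.1% of the 12085 tested protein-coding genes were called, against 58.1% of all genes tested. Of antisense genes 35.2% were called and of lincRNA genes 40.5%, so both classes were below the background. The classes were not matched for expression level, so these shares do not measure how much each class differed. Of 304 antisense genes 73 were lower and 34 higher (median -0.26), and of 481 lincRNA genes 120 were lower and 75 higher (median -0.07). Processed pseudogenes, whose reads can come from their parent genes, were called for 24.6%, with 52 of 325 higher and 28 lower. The strand setting of the counting is unknown here, so reads of an antisense gene and of its partner cannot be told apart.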

How the data were processed

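The deposited table holds normalized counts per gene (a signal, not whole reads) for 12 libraries, and 6 of them are compared here. The submitters' processing notes name cutadapt, Salmon (0.14.1), DESeq2 (1.24.0) and the builds GRCm38 and mm10, without parameters. In each library nearly every value was a whole multiple of 1 step (99.965 to 99.98% in these 6, within 0.02), so the authors' scaling by size factors could be undone and reads recovered; Salmon's estimated counts may have been rounded before. Of the deposited gene identifiers, 54357 were matched to GENCODE M21 for names and positions, and 35 were not.

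KO3 was compared with KO2 by limma 3.58.1 (R 4.3.3) with trend and 4 residual degrees of freedom on log2(normalized count + 1), for genes with at least 10 in at least 3 libraries, with Benjamini-Hochberg adjustment over all of them at 0.05. The signal was used as deposited by the authors. The method was also run on simulated data in which a far smaller share of genes changed than was called here. That run therefore does not show how the method behaves at the share called here. Alternatives were other pseudocounts (0.5 and 5), filters (none, and at least 50), scalings (TMM, quantile), edgeR 4.0.16 and DESeq2 1.42.0 on recovered reads, a fit of all 4 groups, the replicate number as a block, the median of the 50 nearest genes subtracted, and each library left out in turn. The authors' deposited tables of edited lines against WT were not used.

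Named genes are Crls1, the 12 largest called differences in each direction with a mean of at least 100 and no overlap, the 6 highest of those at 0 reads in 1 line, and up to 4 members of each list by adjusted p, without predicted gene models in the first groups. Other genes named were chosen after their values were seen. The comparison and the gene lists were chosen with earlier results of these data known. Counting intervals are exact at 95%, cover counting error only, and reads carry no molecular identifiers.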

Additional observations from a re-analysis of the deposited data

How the results depend on the processing

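Over the 17 alternatives, between 3551 and 4154 genes were called higher in KO3 and between 3534 and 4308 lower, and between 476 and 1013 were at least 2-fold higher. The count at least 2-fold lower was 662 with a filter of at least 50, which tests fewer genes (11937 of 14124), and 920 to 1464 under the others. Leaving out 1 library gave 3551 to 4050 higher and 3534 to 3945 lower, 677 to 764 at least 2-fold higher, 964 to 1044 at least 2-fold lower, and 0.07 to 0.17 for Crls1. Of the 8199 called genes, 6730 to 8193 were called in the same direction under each alternative. The exceptions to a kept direction were 36 genes that were called in the opposite direction once the median of their neighbours was subtracted. That alternative also gave Crls1 a called difference of 0.61 and ended the calls of Cds2 (-0.07), Mrpl42 (0.03), Ndufa12 (0.11), Scd2 (-0.09) and Rps15 (0.12). With quantile normalization the difference of mt-Co1 was 0.00, by construction, since it is the highest gene in all 6 libraries and quantiles then set it alike. With the replicate number as a block, 3697 genes were higher and 3742 lower, 707 and 1010 of them at least 2-fold, and Crls1 differed by 0.12; the replicate numbers were not found to pair the samples, since the deviations of same-numbered libraries correlated at -0.195, -0.051 and -0.162 and no library correlated best with its own number, and the block changed no call of a named gene. Counts of list members moved by more than 1.5 times in at most 9 of 86 under any alternative, mostly where few members were called. Neighbours subtracted gave 8 of 21 cardiolipin genes higher and 8 of 79 respiratory chain genes lower, and the fit of all 4 groups gave 13 respiratory chain genes higher and 2 mitochondrial ribosomal protein genes lower; the cause was not tested. Depth limits low genes most, and a ratio against 1 read has a wide counting interval.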
